A study of Mus musculus with 7 samples.

Results

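This account concerns 9 genes of lipid handling and of the fat cell programme in mouse cardiac fibroblasts: the transcription factors Cebpa, Cebpd, Pparg and Ebf1, the lipoprotein enzyme Lpl, the desaturase Scd1, the lipid droplet protein Plin2, and the lipid carriers Apoe and Apod. They were chosen by name from the 54735 gene symbols of the count table, without a threshold but with earlier results of these data known. Counts among the 9 are therefore descriptions only. All 9 passed the filter on low counts that left 17636 genes for testing. RNA was sequenced from green fluorescent cells that had been sorted from hearts of pooled male and female mice into 7 libraries. The Postn P7 group (2 libraries, genotype PostnMCM;R26eGFP) came from mice aged 7 days. The Tcf21 P7 group (2 libraries) and the Tcf21 P30 group (3 libraries), both Tcf21MCM;R26eGFP, came from mice aged 7 and 30 days. In these alleles the tamoxifen-activated recombinase MerCreMer is made where Postn, the gene of the matrix protein periostin, or Tcf21, the gene of a fibroblast transcription factor, is active, and it permanently switches on a green fluorescent reporter in the Rosa26 locus. A group can therefore hold any cell in which the driver gene was active when the recombinase was switched on, whatever its type when sorted. All 3 groups carry the reporter and a MerCreMer allele, and no unmarked cells serve as a control. No Postn-traced group at 30 days was analysed here, so age was compared in the Tcf21 line alone, and the comparison of Postn P7 with Tcf21 P30 differs in both line and age.

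Library totals ranged from 15207835 to 18519528 counts. Fibroblast markers summed to between 39360 and 54290 CPM (normalised counts, each library brought to the same total) in the 7 libraries, the most of any cell type list examined. Pericyte and smooth muscle markers summed to between 1054 and 2907 CPM, cardiomyocyte markers to between 738 and 1704 CPM, erythroid markers to between 68.9 and 621 CPM and Schwann cell and glia markers to between 18.7 and 70.6 CPM. Postn itself was measured at 2995 and 3695 CPM for Postn P7, at 4258 and 4549 CPM for Tcf21 P7 and at 756 to 907 CPM for Tcf21 P30, while Tcf21 stood between 271 and 428 CPM in all 7 libraries. Replicate 1 of Tcf21 P30 and, less so, replicate 1 of Postn P7 stood apart by their endothelial transcripts: the 15 endothelial markers summed to 5545 and 2291 CPM there and to 1289 to 1611 CPM in the other 5. The 2 Tcf21 P7 libraries lay closest together: a chi-square of their counts over its degrees of freedom was 3.42, above the 1 that sampling noise gives, against 19.4 for the Postn P7 pair and 10.1 to 39.2 for pairs of Tcf21 P30. The labels do not say whether libraries of a group came from separate animals or sorts, so the spread that the p-values weigh is that of these libraries and may in part be technical. In sorted bulk RNA, fewer cells of a type and less RNA per cell cannot be told apart.

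Differentiation of a fat cell begins with Cebpd and Cebpb, which turn on Pparg and Cebpa. The last 2 then sustain each other and the genes of lipid storage, and Ebf1 acts early in the same cascade. Lpl, lipoprotein lipase, frees fatty acids from circulating triglyceride, Scd1 makes them monounsaturated and Plin2 coats the droplets in which they are stored. Apoe and Apod carry cholesterol and small lipids outside the cell. In the heart, fibroblasts supply much of the extracellular matrix, cardiomyocytes take up fatty acids released by lipoprotein lipase as their chief fuel after birth, and macrophages are a known rich source of Apoe. A fibroblast can express several of these genes without being a fat cell.

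Promoter windows were found for 6 of the 9 genes in the RefSeq promoter table, and those of 3 genes are shown. Cebpa and Apoe were lower in Postn P7 than in either Tcf21 group, and Apod rose with age. The calls of Cebpa and Apoe at 7 days were lost without either Tcf21 P7 library. Each window is the 250 bases that end just before the transcription start, 5' to 3' on the strand of the gene, in GRCm38.p6, with matched motifs in capitals. The windows are chr7:35119043-35119292 on the plus strand for Cebpa, chr7:19699189-19699438 on the minus strand for the first of 3 annotated starts of Apoe, and chr16:31314809-31315058 on the minus strand for Apod.
Cebpa: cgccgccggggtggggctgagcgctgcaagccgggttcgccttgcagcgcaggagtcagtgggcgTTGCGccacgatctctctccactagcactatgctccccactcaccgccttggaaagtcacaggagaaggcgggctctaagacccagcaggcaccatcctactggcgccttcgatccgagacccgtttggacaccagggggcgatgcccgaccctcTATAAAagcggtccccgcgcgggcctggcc
Apoe: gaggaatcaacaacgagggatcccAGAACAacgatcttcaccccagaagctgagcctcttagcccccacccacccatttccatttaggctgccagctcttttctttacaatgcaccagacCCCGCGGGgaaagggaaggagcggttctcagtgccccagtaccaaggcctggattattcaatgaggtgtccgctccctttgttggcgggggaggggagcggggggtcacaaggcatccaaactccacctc
Apod: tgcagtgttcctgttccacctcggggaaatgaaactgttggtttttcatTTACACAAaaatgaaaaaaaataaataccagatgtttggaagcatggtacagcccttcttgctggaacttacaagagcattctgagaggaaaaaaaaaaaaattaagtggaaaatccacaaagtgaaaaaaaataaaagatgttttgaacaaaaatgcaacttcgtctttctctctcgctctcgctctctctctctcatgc
In the Cebpa window the capitals are TTGCG, a C/EBP half-site, at 185 to 181 bases before the start, and TATAAA, the TATA box, at 30 to 25 bases before it. In the Apoe window they are AGAACA, a glucocorticoid receptor half-site, at 226 to 221 bases and the EBF motif CCCNNGGG at 130 to 123 bases. In the Apod window they are the C/EBP motif TTNNGNAA, on the opposite strand, at 201 to 194 bases. The search covered both strands and 7 motifs. Over 32851 windows of the same length, TTNNGNAA was found in 36.8%, AGAACA in 16.1%, TTGCG in 14.5%, AGGTCA (a nuclear receptor half-site) in 14.0%, TATAAA in 12.4%, CCCNNGGG in 11.8% and TCACNCCAC (SREBP) in 1.05%. No matches overlapped in the 3 windows shown. Such matches are frequent by their letters alone and describe the sequence only.

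Between 7 and 30 days in Tcf21-traced cells, Cebpd, Apod, Scd1, Lpl and Ebf1 rose, by 5.28-fold, 5.11-fold, 3.58-fold, 2.17-fold and 1.40-fold, and none of the 9 genes fell. The call of Ebf1 was lost without either Tcf21 P7 library and with the pair summed. The 5 of 9 calls stand beside 31.8% of all genes tested that were called in either direction (16.7% higher). The median log2 fold change was 1.12 over the 9 genes and 0.03 over all genes tested. In 8 of 9 genes the libraries of the 2 ages did not overlap, against 61.8% of all genes tested. Tests were made with edgeR's quasi-likelihood method with Benjamini-Hochberg adjustment over all genes tested, and a gene was called at an adjusted p under 0.05.

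At 7 days, Cebpa, Scd1 and Apoe were lower in Postn-traced than in Tcf21-traced cells and Ebf1 was higher, 4 of 9 genes against a background of 12% (6.52% higher, 5.49% lower). The median was -0.25 over the 9 genes and 0.00211 over all genes tested, and 7 of 9 genes showed no overlap between the groups, against 64%. All 4 calls rested on having both Tcf21 P7 libraries: with either one left out, or with the pair summed to 1 library, 0 of the 9 were called by edgeR's test (4 had an unadjusted p under 0.05 in each case), where over all genes tested 107 (without replicate 1), 75 (without replicate 2) and 109 (summed) were called in place of 2118. With both kept, DESeq2 and limma-voom each called 4 of the 9 as well. The log2 fold changes themselves stayed below zero for Cebpa, Scd1 and Apoe and above zero for Ebf1 under every alternative run. Without Postn P7 replicate 2 these 4 calls were also lost and Apod alone was called. Where a group was left with 1 library, its spread was taken from the remaining groups.

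Against Tcf21 P30, the Postn P7 libraries were lower in Scd1, Apod, Cebpd, Cebpa, Lpl and Apoe, 6 of 9 genes, and higher in none, beside 24.2% of all genes tested that were called (12.5% lower). The median was -1.36 over the 9 genes and -0.01 over all genes tested. In 7 of 9 genes the groups did not overlap, against 50.6%. All 6 calls were kept under each alternative run. This comparison shares its Tcf21 P30 libraries with the comparison of ages and its Postn P7 libraries with that of the lines, and those share the Tcf21 P7 libraries, so the comparisons are not independent.

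**Figure D1:**
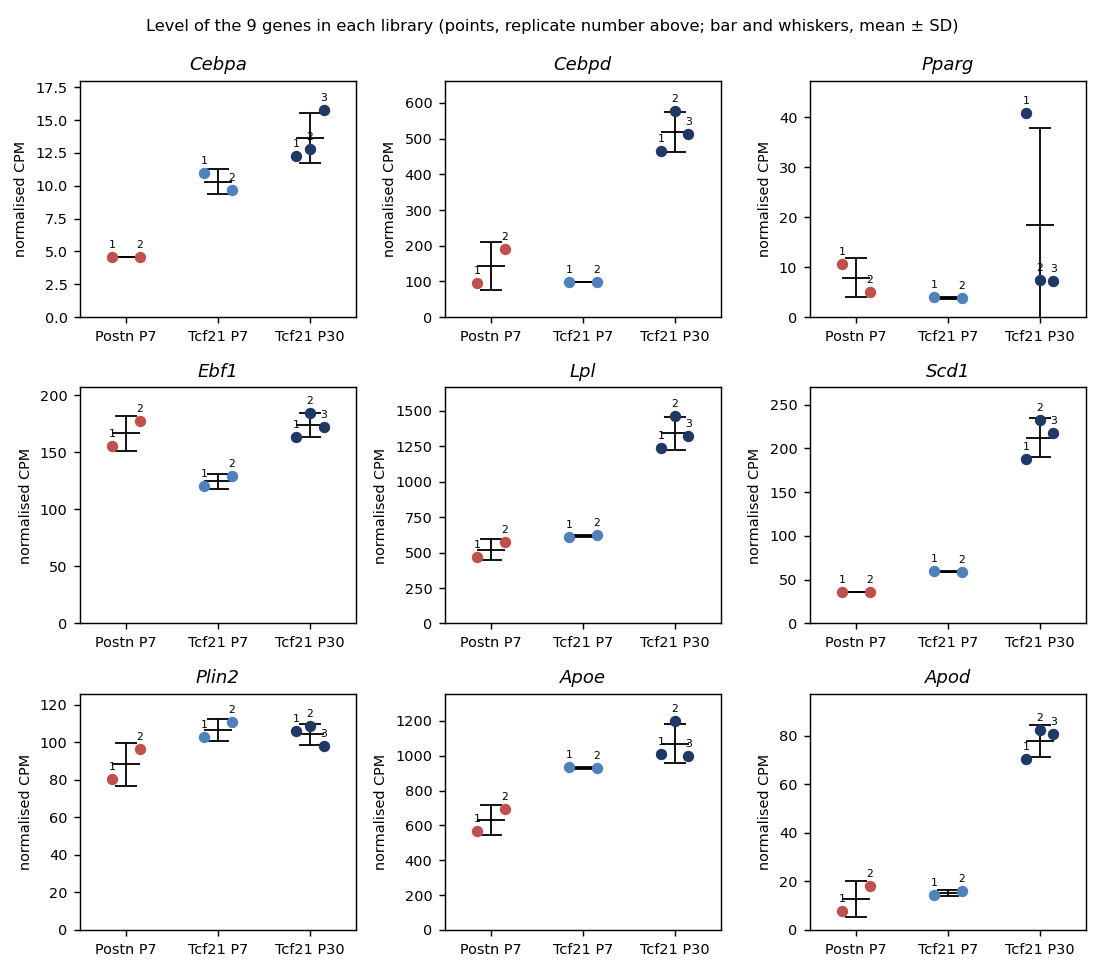
Normalised CPM of the 9 genes (vertical axes, linear from 0) in each of the 7 libraries by group (horizontal axes); points are libraries with the replicate number above, and the bar and whiskers give the mean ± SD (the lower whisker of Pparg in Tcf21 P30 runs below 0 and is cut by the axis). The Tcf21 P30 points of Cebpd, Lpl, Scd1 and Apod all lie above the other libraries, and in Pparg 1 library stands alone at 40.9 CPM.

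Cebpd, the early CCAAT/enhancer-binding protein of the cascade, lies at chromosome 16, 15887286 to 15891031, on the plus strand (GRCm38). Its normalised level was 94.5 and 190 CPM for Postn P7, 98.3 and 97.6 CPM for Tcf21 P7 and 465, 576 and 512 CPM for Tcf21 P30. Every day 30 library lay above every day 7 library, and the 2 Postn P7 libraries disagreed, with replicate 2 above and replicate 1 level with Tcf21 P7. The log2 fold change with age was 2.40 ± 0.30 (SE, adjusted p = 0.00199). Postn P7 was lower than Tcf21 P30 by -1.87 ± 0.29 (adjusted p = 0.00539), with values from -2.45 without Postn P7 replicate 2 to -1.45 without replicate 1. The difference of 0.54 ± 0.30 between the lines at 7 days was not called (adjusted p = 0.288). With no filter on low counts, the same difference had an SE of 0.14 and was called by edgeR's test (adjusted p = 0.0023). It was 0.95 without Postn P7 replicate 1, which passed the test (adjusted p = 0.0185), and -0.05 without replicate 2, so the 2 libraries give opposite signs. Each value rests on 1 Postn P7 library whose spread was taken from the remaining libraries. Without both endothelial-rich libraries, which also leaves 1 Postn P7 library, the difference was 0.96. On the opposite strand Spidr, a gene of DNA repair, shares 562 exon bases with Cebpd, and no source used here gives the strand setting of the counting. Spidr was itself at 20.3 and 23.5 CPM for Tcf21 P7 and at 72.9 to 79.6 CPM for Tcf21 P30, a log2 fold change of 1.80 ± 0.17 (adjusted p = 0.000236). Without that setting it is not known how reads from the shared stretch were divided between the pair, and the part of Spidr in the Cebpd counts was not tested.

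Cebpa, the late member of the same family that holds the fat cell state, lies at chromosome 7, 35119293 to 35121928, on the plus strand. Its libraries held 4.55 CPM each for Postn P7, 11.0 and 9.64 CPM for Tcf21 P7 and 12.2, 12.8 and 15.8 CPM for Tcf21 P30, from 71 to 287 raw counts per library. The 3 groups did not overlap, with Postn P7 lowest and Tcf21 P30 highest. At 7 days Postn P7 was below Tcf21 P7 by -1.18 ± 0.20 on the log2 scale (adjusted p = 0.0136). This call was lost when Postn P7 replicate 2 (adjusted p = 0.0632) or Tcf21 P7 replicate 1 or 2 (0.111 and 0.0834) was left out and when the Tcf21 P7 pair was summed (0.0955). Against Tcf21 P30 the difference was -1.58 ± 0.19 (adjusted p = 0.000661). With age in the Tcf21 line, 0.40 ± 0.17 did not pass the test (adjusted p = 0.114). Of 17 macrophage markers, given below with Apoe, 13 were also called lower in Postn P7 than in Tcf21 P7, beside 5.49% of all genes tested. With age 13 of the 17 were called lower too, while Cebpa was not. The part of macrophage RNA in the level of Cebpa was not tested. An antisense transcript, Gm45091, shares 51 exon bases with Cebpa and reached at most 1.20 CPM in a library.

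Pparg, the nuclear receptor at the centre of fat cell differentiation, lies at chromosome 6, 115360951 to 115490399, on the plus strand. The level stood at 10.7 and 5.12 CPM for Postn P7, 4.04 and 3.75 CPM for Tcf21 P7 and 40.9, 7.48 and 7.25 CPM for Tcf21 P30, from 65 to 648 raw counts per library. The highest library of each of Postn P7 and Tcf21 P30 was replicate 1, the 2 libraries richest in endothelial markers. Within their groups these 2 libraries were also highest in the sums of pericyte and smooth muscle markers (2907 beside 2123 CPM for Postn P7, and 2294 beside 1054 and 1129 CPM for Tcf21 P30), of cardiomyocyte markers (1704 against 738 CPM, and 1442 against 763 and 812 CPM) and of erythroid markers (370 against 68.9 CPM, and 621 against 181 and 291 CPM). The differences were 1.03 ± 1.04 between the lines at 7 days (adjusted p = 0.565), 2.25 ± 1.00 with age (adjusted p = 0.149) and -1.22 ± 0.93 between Postn P7 and Tcf21 P30 (adjusted p = 0.418), and none was called. Without both endothelial-rich libraries the difference with age was 0.92 ± 0.22 and was called (adjusted p = 0.00654), and those between Postn P7 and either Tcf21 group were 0.41 and -0.52 (adjusted p = 0.329 and 0.195). Without Tcf21 P30 replicate 1 alone, the difference with age was 0.92 ± 0.34 and was not called (adjusted p = 0.0648), and that between Postn P7 and Tcf21 P30 was 0.11. With no filter on low counts, Pparg was called in all 3 comparisons (adjusted p = 0.00138, 1.4e-17 and 6.06e-06). The fold changes hardly moved (1.04 between the lines at 7 days and 2.22 with age), but the SEs fell to 0.26 and 0.25. These p-values thus give little weight to the spread among the Tcf21 P30 libraries, where 1 library stood far above the others. Of the 15 endothelial markers, 0 were called by edgeR's test, DESeq2 or limma-voom between the lines at 7 days or with age, with at most 1 at an unadjusted p under 0.05. Tek alone was called between Postn P7 and Tcf21 P30, lower in Postn P7 (-0.42 ± 0.10, adjusted p = 0.0194), a call lost without both endothelial-rich libraries (adjusted p = 0.0526), without Postn P7 replicate 1, without either Tcf21 P7 library and with that pair summed. Pparg is also expressed by endothelial cells of the heart. The part of these or the other cell types in the level of Pparg was not tested beyond these values.

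Ebf1, an early B-cell factor that is also active in fat cell precursors and other mesenchymal cells, lies at chromosome 11, 44617317 to 45008091, on the plus strand. Its normalised level was 155 and 178 CPM for Postn P7, 120 and 129 CPM for Tcf21 P7 and 164, 185 and 173 CPM for Tcf21 P30. Tcf21 P7 lay below both other groups, and those 2 overlapped. Postn P7 exceeded Tcf21 P7 by 0.42 ± 0.11 (adjusted p = 0.0418), and the rise with age was 0.48 ± 0.10 (adjusted p = 0.0081). The first call was lost with upper-quartile scaling (adjusted p = 0.0501), without either Postn P7 library (0.0519 and 0.17), without either Tcf21 P7 library (0.265 and 0.188), with that pair summed (0.228) and without Tcf21 P30 replicate 3 (0.0857). The rise with age was lost without Tcf21 P7 replicate 1 or 2 (0.108 and 0.061) and with the pair summed (0.0806). Between Postn P7 and Tcf21 P30 the difference was -0.06 ± 0.10 (adjusted p = 0.709), and its sign changed with library size alone as the scaling (0.04).

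**Figure D2:**
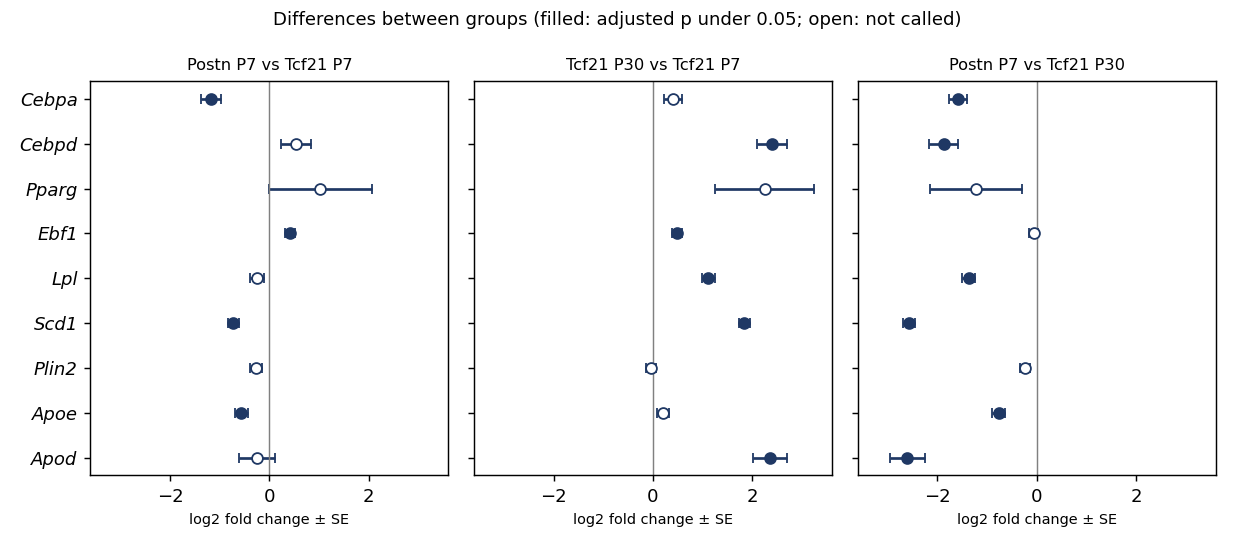
Log2 fold change (horizontal axes) of each of the 9 genes (vertical axis) in the 3 comparisons; points are estimates, whiskers 1 SE, and filled points passed an adjusted p of 0.05. The wide whiskers of Pparg, 1.04, 1.00 and 0.93, contrast with SEs of 0.10 to 0.13 for Ebf1, Lpl, Scd1 and Plin2.

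Lpl, the enzyme that hydrolyses triglyceride in lipoproteins, lies at chromosome 8, 68880491 to 68907448, on the plus strand. Its libraries held 467 and 574 CPM for Postn P7, 613 and 624 CPM for Tcf21 P7 and 1234, 1462 and 1324 CPM for Tcf21 P30. The 3 groups did not overlap, and each day 30 library was close to double the Tcf21 P7 level or above it. The rise with age was 1.12 ± 0.13 on the log2 scale (adjusted p = 0.000561), and Postn P7 was below Tcf21 P30 by -1.36 ± 0.13 (adjusted p = 0.000212). Between the lines at 7 days, -0.25 ± 0.13 did not pass the test (adjusted p = 0.254). The increase with age was 1.17 without both endothelial-rich libraries.

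Scd1, stearoyl-CoA desaturase 1, which makes oleate from stearate, lies at chromosome 19, 44394455 to 44407879, on the minus strand. The level stood at 35.6 and 36.1 CPM for Postn P7, 59.8 and 58.9 CPM for Tcf21 P7 and 188, 232 and 218 CPM for Tcf21 P30. The groups were ordered without overlap, and within each day 7 group the 2 libraries nearly coincided. Scd1 rose with age by 1.84 ± 0.11 (adjusted p = 4.6e-05). Postn P7 was below Tcf21 P7 by -0.73 ± 0.12 (adjusted p = 0.0116) and below Tcf21 P30 by -2.57 ± 0.11 (adjusted p = 1.5e-05). The call at 7 days was lost without Postn P7 replicate 2 (adjusted p = 0.0553), without Tcf21 P7 replicate 1 or 2 (0.117 and 0.114) and with the Tcf21 P7 pair summed (0.114). No source used here tells how the counting divided reads among the closely related desaturase genes. The paralog Scd2 was measured at 367 and 466 CPM for Postn P7, 424 and 404 CPM for Tcf21 P7 and 378 to 496 CPM for Tcf21 P30, and was called in none of the comparisons (adjusted p = 0.98, 0.593 and 0.67).

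Plin2, perilipin 2, the coat protein of lipid droplets in most cells that are not fat cells, lies at chromosome 4, 86648386 to 86670060, on the minus strand. Its normalised level was 80.2 and 96.4 CPM for Postn P7, 103 and 111 CPM for Tcf21 P7 and 106, 109 and 98.0 CPM for Tcf21 P30. Both Postn P7 libraries lay below all 5 Tcf21 libraries, and the 2 ages of the Tcf21 line overlapped. No comparison was called: the differences were -0.27 ± 0.11 between the lines at 7 days (adjusted p = 0.154), -0.04 ± 0.10 with age (adjusted p = 0.821) and -0.24 ± 0.11 between Postn P7 and Tcf21 P30 (adjusted p = 0.145).

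Apoe, the apolipoprotein that hands lipoproteins to receptors on the cell surface, lies at chromosome 7, 19696109 to 19699188, on the minus strand, and its promoter is among those shown above. Its libraries held 569 and 694 CPM for Postn P7, 936 and 928 CPM for Tcf21 P7 and 1011, 1200 and 999 CPM for Tcf21 P30. Both Postn P7 libraries lay below all Tcf21 libraries. The difference was -0.56 ± 0.14 against Tcf21 P7 (adjusted p = 0.0394) and -0.76 ± 0.13 against Tcf21 P30 (adjusted p = 0.00418). The first call was lost with upper-quartile scaling (adjusted p = 0.0642), without Postn P7 replicate 1 or 2 (0.139 and 0.0627), without either Tcf21 P7 library (0.231 in both cases), with that pair summed (0.237) and without Tcf21 P30 replicate 3 (0.086). With age, 0.20 ± 0.13 did not pass the test (adjusted p = 0.264).

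Macrophage markers moved beside the first of these Apoe differences. The 17 markers summed to 410 and 543 CPM for Postn P7, to 1399 and 1391 CPM for Tcf21 P7 and to 703, 464 and 490 CPM for Tcf21 P30, and 13 of the 17 were called lower in Postn P7 than in Tcf21 P7. In Tcf21 P30, too, 13 of the 17 were called lower than in Tcf21 P7. Over all genes tested, 5.49% were called lower between the lines at 7 days and 15% with age. Without Tcf21 P7 replicate 1 or 2, 3 and 2 of the 17 were called between the lines at 7 days, without Postn P7 replicate 2 8 were, and with the Tcf21 P7 pair summed 3 were, whereas between the ages 12 were called in each case with a Tcf21 P7 library left out or the pair summed. C1qa, for example, stood at 23.8 and 23.7 CPM for Postn P7 and at 101 and 106 CPM for Tcf21 P7, and no defining marker was at 0. Their part in the level of Apoe was not tested. In each Tcf21 P30 library the macrophage sum was below that of both Tcf21 P7 libraries, while the level of Apoe was above both, a difference with age that was not called (adjusted p = 0.264).

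**Figure D3:**
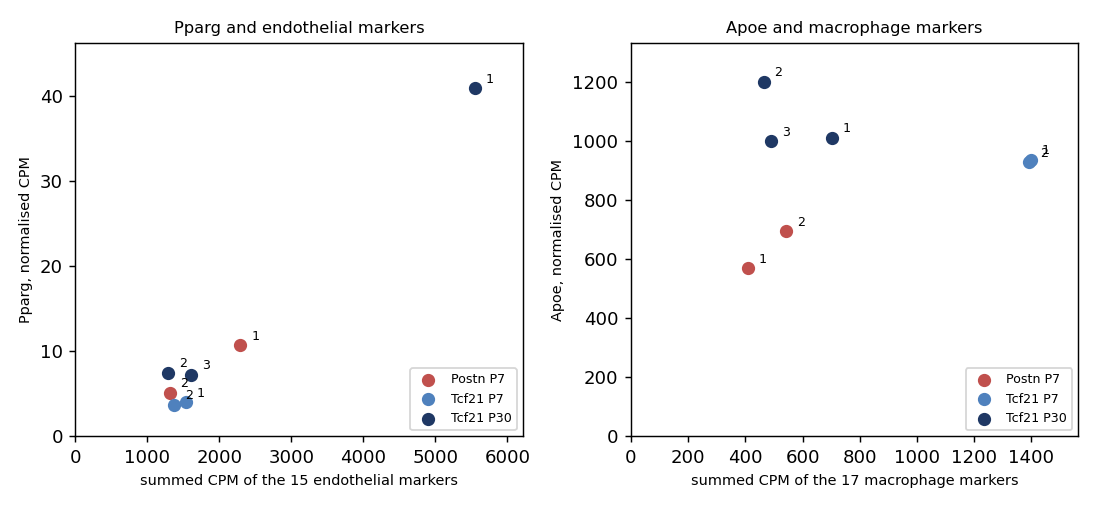
Left, Pparg (vertical axis, normalised CPM) against the summed CPM of 15 endothelial markers (horizontal axis), and right, Apoe against that of 17 macrophage markers; each point is a library, coloured by group and numbered by replicate. Tcf21 P30 replicate 1 is highest in both endothelial markers (5545 CPM) and Pparg (40.9 CPM), while the highest Apoe level (1200 CPM) is in a library with a macrophage sum of 464 CPM. The endothelial sum includes Cd36, Fabp4 and Gpihbp1, also genes of fatty acid uptake, at 1041, 806 and 207 CPM in Tcf21 P30 replicate 1.

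Apod, a lipocalin that binds small hydrophobic molecules such as arachidonic acid and progesterone, lies at chromosome 16, 31296192 to 31314808, on the minus strand, with its promoter shown above. The level stood at 7.67 and 18.1 CPM for Postn P7, 14.4 and 16.1 CPM for Tcf21 P7 and 70.3, 82.6 and 80.9 CPM for Tcf21 P30. The day 30 libraries lay far above all day 7 libraries, and the 2 day 7 groups overlapped because the Postn P7 libraries lay on either side of Tcf21 P7. Apod rose with age by 2.35 ± 0.35 (adjusted p = 0.00378), and Postn P7 was below Tcf21 P30 by -2.60 ± 0.35 (adjusted p = 0.00304), with values from -3.34 without Postn P7 replicate 2 to -2.10 without replicate 1. The difference of -0.25 ± 0.36 at 7 days was not called (adjusted p = 0.688). It was 0.25 without Postn P7 replicate 1 and -0.99 without replicate 2. The second value passed the test (adjusted p = 0.0363), but it rests on 1 Postn P7 library whose spread was taken from the remaining libraries, and the 2 libraries give opposite signs.

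Scaled to the length of their annotated exons, Apoe was the most abundant of the 9 in each group, at 295 CPM per kilobase in Postn P7, 436 in Tcf21 P7 and 500 in Tcf21 P30. In Tcf21 P30 the level per kilobase then ran from Cebpd (138) and Lpl (128), whose libraries overlapped, through Scd1 (43.4), Apod (30.2), Plin2 (29.6) and Ebf1 (17.8) to Pparg (6.28) and Cebpa (5.16). Apod and Plin2 overlapped there, as did Pparg and Cebpa. In Tcf21 P7 the order was Apoe, Lpl (59.0), Plin2 (30.4), Cebpd (26.2), Ebf1 (12.8), Scd1 (12.1), Apod (5.91), Cebpa (3.91) and Pparg (1.32), with Ebf1 and Scd1 close to each other but no overlap between neighbours. In Postn P7 it was Apoe, Lpl (49.7), Cebpd (37.9), Plin2 (25.1), Ebf1 (17.1), Scd1 (7.33), Apod (5.0), Pparg (2.68) and Cebpa (1.73), where Cebpd overlapped both Lpl and Plin2, and Apod overlapped Pparg. Cebpd thus ranked next to Apoe in Tcf21 P30 and below Lpl and Plin2 in Tcf21 P7. The levels per kilobase depend on the length used. With the longest transcript (4115 bases) in place of the union of exons (10478 bases), Lpl was at 326 per kilobase in Tcf21 P30 and ranked above Cebpd. Apoe, Plin2 and Ebf1 also moved by over 1.5 times, in Tcf21 P30 to 760, 55.1 and 29.0 per kilobase. Plin2 then ranked above Scd1 and Apod in Tcf21 P30 and above Cebpd in Postn P7, while Apoe kept the first rank in each group.

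**Figure D4:**
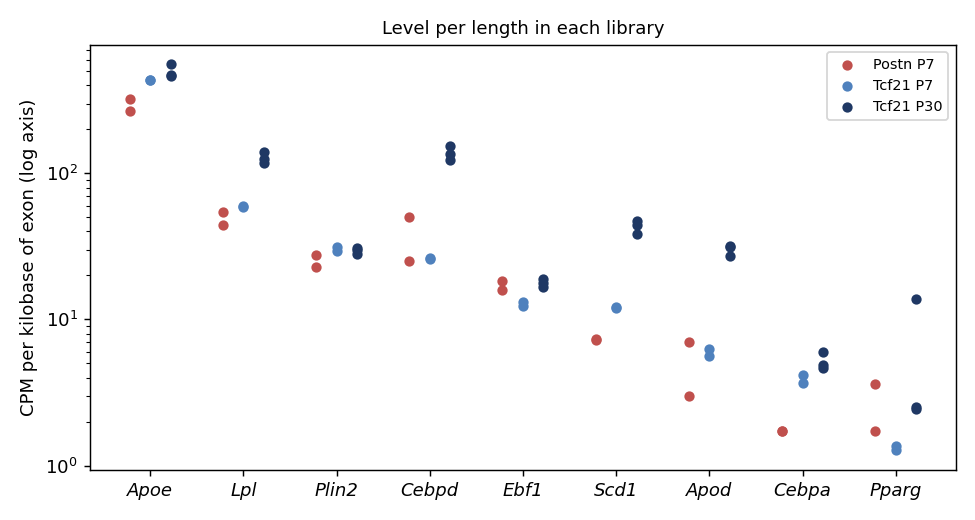
CPM per kilobase of exon (vertical axis, log scale) of the 9 genes (horizontal axis) in each library, coloured by group. Apoe lies highest in all groups (295 to 500 on average), and the gap between the Tcf21 P30 points and the others is widest for Cebpd, Scd1 and Apod.

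The 9 genes belong to 7 wider lists of lipid handling and adipogenic control, which held 131 genes, of which 121 were tested. With age in the Tcf21 line 37 of the 121 were called higher and 10 lower, beside 16.7% and 15% of all genes tested, with a median of 0.32 against 0.03 over all genes tested. Without the 9 genes the counts were 32 and 10 of 112. When either Tcf21 P7 library was left out, 28 and 27 of the listed genes were called in place of 47. The cholesterol synthesis list stood at one end, with 14 of 18 genes higher and none lower (median 0.92), among them Sc5d (1.47 ± 0.13, adjusted p = 0.000201), a late enzyme of the pathway, Idi1 (1.46 ± 0.27, adjusted p = 0.0052), which makes dimethylallyl pyrophosphate, and Sqle (1.28 ± 0.16, adjusted p = 0.000926), squalene epoxidase. Sc5d stood at 23.4 and 24.4 CPM for Tcf21 P7 and at 57.4, 67.1 and 73.9 CPM for Tcf21 P30, without overlap. Without Tcf21 P7 replicate 2, 9 of the 18 were called, and the call of Idi1 was lost.

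Among 20 adipogenic activators, the 4 transcription factors described included, 7 were higher at 30 days and 1 was lower (median 0.36). Over all genes tested 31.8% were called, 16.7% higher and 15% lower. The counts were 5 and 1 of 16 with the 4 left out (median 0.155). Nr1h3, the liver X receptor alpha, rose from 3.75 and 6.52 CPM to 32.2, 39.6 and 34.5 CPM, by 2.78 ± 0.24 (adjusted p = 0.000171). Klf9 and Klf15, Krüppel-like factors induced by glucocorticoid and active in fat cell differentiation, rose by 1.495 ± 0.10 (adjusted p = 6.52e-05) and 1.27 ± 0.18 (adjusted p = 0.00167). Klf5, an early factor of the same family, fell by 1.58 ± 0.43 (adjusted p = 0.0268), a call lost without either Tcf21 P7 library, without Tcf21 P30 replicate 2 and with the Tcf21 P7 pair summed. Over the list, 5 genes were called in place of 8 without either Tcf21 P7 library. Of 14 adipogenic inhibitors, Dlk1, a secreted inhibitor of fat cell differentiation and an imprinted gene, fell from 76.4 and 71.1 CPM to 0.442, 0.824 and 0.550 CPM, by 6.92 ± 0.24 (adjusted p = 8.22e-06). Foxo1 rose by 0.36 ± 0.08 (adjusted p = 0.00901), which was lost without either Tcf21 P7 library and with the pair summed. The other 12 inhibitors were not called, where 31.8% of all genes tested were called. The median of the 14 was -0.09.

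Of the 20 tested genes of the lipoprotein lipase system and fatty acid uptake, 5 were higher at 30 days, Lpl included, and 3 were lower (median 0.20). The counts were 4 and 3 of 19 with Lpl left out (median 0.105), beside 16.7% and 15% of all genes tested. The receptor Lrp1, which takes up Apoe-bearing remnants, rose by 0.99 ± 0.15 (adjusted p = 0.00187). Lrp1 stood at 1106 and 1120 CPM for Tcf21 P7 and at 1976, 2069 and 2608 CPM for Tcf21 P30. Fabp3, the fatty acid binding protein of heart muscle, fell by 1.74 ± 0.41 (adjusted p = 0.0249). That call was lost without either Tcf21 P7 library, without Tcf21 P30 replicate 3 and with the Tcf21 P7 pair summed, and Fabp3 is also a cardiomyocyte marker here. Of the 12 cardiomyocyte markers, 2 were called with age, Fabp3 and Myl3, both lower (list median -0.73), and the call of Myl3 (adjusted p = 0.0321) was lost under the same settings as that of Fabp3. Others stood higher at 30 days without passing the test, such as Ttn, at 147 and 103 CPM for Tcf21 P7 and 445, 269 and 258 CPM for Tcf21 P30 (adjusted p = 0.324). The part of cardiomyocyte RNA in the level of Fabp3 was not tested. Lrp8, at most 1.21 CPM in a library, was also among the higher, a call (adjusted p = 0.0368) lost without either Tcf21 P7 library, without Tcf21 P30 replicate 2 or 3, with limma-voom, with the replicate block and with the Tcf21 P7 pair summed. Over the list, 4 and 5 genes were called in place of 8 without Tcf21 P7 replicate 1 and 2, 5 without Tcf21 P30 replicate 3, and 13 without both endothelial-rich libraries. Gpihbp1, which anchors lipoprotein lipase to the capillary wall, Cd36 and Fabp4 were also endothelial markers. Each was highest in Tcf21 P30 replicate 1, where they stood at 207, 1041 and 806 CPM, and Gpihbp1 lay between 34.5 and 85.5 CPM in the other libraries.

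In fatty acid and triglyceride synthesis, 7 of 20 genes were higher at 30 days and 1 was lower (median 0.39). The counts were 6 and 1 of 19 with Scd1 left out (median 0.362), beside 16.7% and 15% of all genes tested. Beside Scd1, the higher genes included the elongase Elovl6 (1.22 ± 0.21, adjusted p = 0.00364), the lipogenic factor Srebf1 (0.65 ± 0.19, adjusted p = 0.0366) and malic enzyme, Me1 (0.55 ± 0.14, adjusted p = 0.0208). Dgat2, which adds the last acyl chain of triglyceride, fell by 0.80 ± 0.18 (adjusted p = 0.0113). The calls of Srebf1, Me1 and Dgat2 were lost without either Tcf21 P7 library and with the pair summed. Without either library 2 genes of the list were called in place of 8. The calls of Srebf1 and Me1 were also lost without Tcf21 P30 replicate 2 or 3, and that of Me1 with the replicate block (0.49, adjusted p = 0.067). Of 15 tested genes of droplets and lipolysis, G0s2, an inhibitor of the triglyceride lipase, rose by 1.14 ± 0.12 (adjusted p = 0.000333) and Fitm1 and Plin3 fell by 1.93 ± 0.35 (adjusted p = 0.00476) and 0.44 ± 0.12 (adjusted p = 0.0268). The call of Plin3 was lost without either Tcf21 P7 library, with the pair summed and without Tcf21 P30 replicate 3. Fitm1 was at most 9.43 CPM in a library, and the part of cardiomyocyte RNA in its level was not tested. G0s2 stood at 57.5 and 65.4 CPM for Tcf21 P7 and at 121 to 150 CPM for Tcf21 P30, while 6 genes of this list were called without Tcf21 P30 replicate 1.

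Of 15 tested apolipoproteins, lipocalins and efflux genes, 3 were higher at 30 days and 2 were lower (median 0.20), a share near the 31.8% called over all genes tested. With Apoe and Apod left out, the counts were 2 and 2 of 13 and the median was below zero (-0.133). With Apod, the retinol carrier Rbp4 rose by 1.54 ± 0.28 (adjusted p = 0.0052) and Apol9b, measured at 0.284 and 0.462 CPM for Tcf21 P7 and at 2.34 to 3.57 CPM for Tcf21 P30, by 3.06 ± 0.58 (adjusted p = 0.006). The phospholipid transfer protein Pltp fell by 0.82 ± 0.12 (adjusted p = 0.00193) and the cholesterol exporter Abca1 by 0.56 ± 0.12 (adjusted p = 0.00939). Without Tcf21 P7 replicate 1 the calls of Rbp4, Apol9b and Abca1 were lost, and without replicate 2 those of Rbp4 and Abca1, so that 2 and 3 genes were called in place of 5. With the pair summed, the calls of Rbp4 and Abca1 were lost as well.

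**Figure D5:**
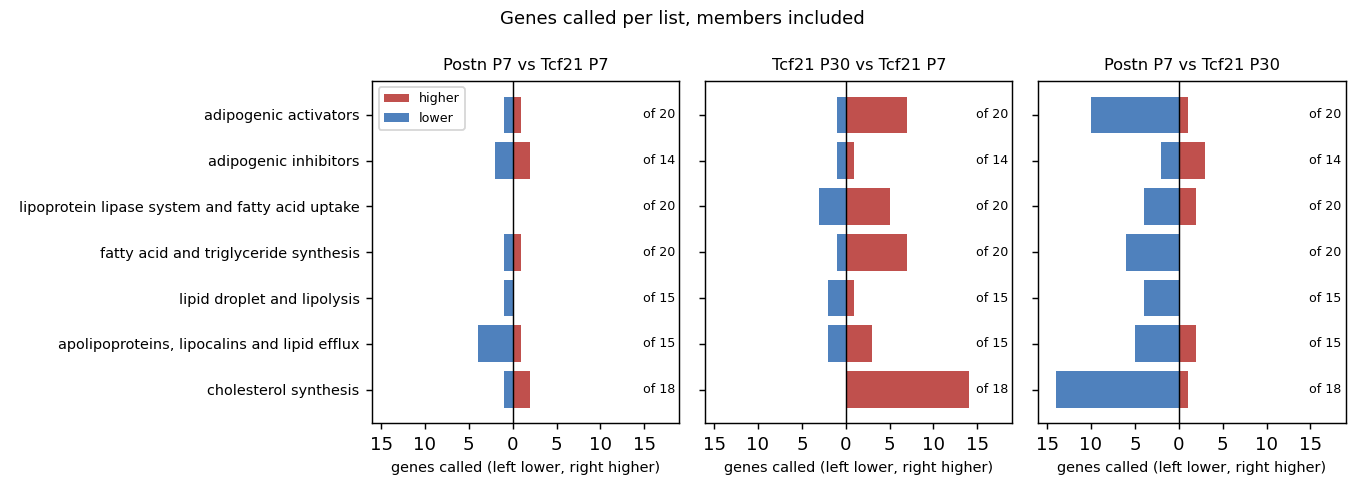
Number of genes called higher (right of 0) and lower (left of 0) in each of the 7 lists (vertical axis) in the 3 comparisons, with the number tested beside each bar; the 9 genes are included. Cholesterol synthesis shows 14 higher and 0 lower of 18 with age, and 1 higher and 14 lower between Postn P7 and Tcf21 P30.

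At 7 days, 7 of the same 121 genes were higher and 10 lower in Postn P7 (median -0.07), beside 6.52% and 5.49% of all genes tested, and 6 and 7 of 112 without the 9 genes. Among the inhibitors, the nuclear receptor Nr2f2 was higher in Postn P7, at 55.6 and 62.1 CPM against 24.0 and 23.7 CPM (1.30 ± 0.13, adjusted p = 0.00286), and Dlk1 was lower, at 15.4 and 21.7 CPM against 76.4 and 71.1 CPM (-1.99 ± 0.21, adjusted p = 0.00329). Both groups of libraries lay apart in each of these genes, and each kept its call in all alternatives run. G0s2 was lower by -1.02 ± 0.13 (adjusted p = 0.0055), the efflux and transfer genes Npc2 and Pltp by -0.53 ± 0.11 (adjusted p = 0.023) and -0.54 ± 0.13 (adjusted p = 0.0411), and Elovl6 was higher by 1.15 ± 0.22 (adjusted p = 0.0189). The lipocalin Lcn2 was higher too, with 2.91 and 3.07 CPM for Postn P7 and 0.114 and 0.0577 CPM (2 and 1 counts) in Tcf21 P7 (adjusted p = 0.00923). Of the 20 tested genes of the lipoprotein lipase system and fatty acid uptake, 0 were called by edgeR's test, DESeq2 or limma-voom, and 4 had an unadjusted p under 0.05 in each of the 3. Without either Tcf21 P7 library, 2 of the 121 genes were called in place of 17, and the calls of G0s2, Npc2, Pltp, Elovl6 and Lcn2 were lost, as they were with the pair summed. Without Postn P7 replicate 1, those of Npc2, Pltp and Elovl6 were lost as well, without Postn P7 replicate 2 that of Pltp, and without Tcf21 P30 replicate 3 those of Npc2 and Pltp. The call of Pltp was also lost with the replicate block (-0.53, adjusted p = 0.0594) and with library size alone as the scaling (-0.42, adjusted p = 0.0822).

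Between Postn P7 and Tcf21 P30, 9 of 121 were higher in Postn P7 and 44 lower (median -0.36 against -0.01), beside 11.7% and 12.5% of all genes tested, and 9 and 38 of 112 without the 9 genes. In cholesterol synthesis 14 of 18 were lower and 1 was higher (list median -0.835), in the activators 10 of 20 were lower and 1, Klf5, was higher, and in fatty acid and triglyceride synthesis 6 of 20 were lower. Nr1h3 stood at 4.18 and 4.29 CPM for Postn P7, a difference of -3.06 ± 0.25 (adjusted p = 0.000108). G0s2, at 30.9 and 29.7 CPM, was lower by -2.16 ± 0.12 (adjusted p = 3.02e-05) and Lrp1 by -1.41 ± 0.15 (adjusted p = 0.000381). Thrsp, a lipogenic protein of fat and liver, was listed among the lower genes, but stood at 20.0 CPM for Tcf21 P30 replicate 1 and at 4.12 and 3.96 CPM in replicates 2 and 3. Its call (adjusted p = 0.0341) was lost with limma-voom, without any 1 of the 4 day 7 libraries and with the Tcf21 P7 pair summed. Without Postn P7 replicate 2, 8 of the 18 cholesterol synthesis genes were called in place of 15.

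Of 15 markers of the mature fat cell, 8 were at or near 0 in all 3 groups and too low to be tested. Cidec and Pck1 had no count in any library. Adipoq, Plin1, Lep, Retn, Cfd and Ucp1 had at most 5 counts in a library. Among the 7 tested, Lipe stood at 12.6 to 67.0 CPM and Slc2a4 at 4.06 to 16.7 CPM. Thrsp reached 20.0 CPM in Tcf21 P30 replicate 1, and Plin4, Cidea and Adrb3 were at most 3.79 CPM. The sum of the 15 ranged from 179 to 912 CPM, of which Fabp4, also an endothelial marker, made up 151 to 806 CPM. Of 13 markers of fat cell progenitors, by contrast, 6 rose with age and 2 fell (median 0.74 over the list). The counts were 6 and 2 of 12 with Pparg left out (median 0.618), beside 16.7% and 15% of all genes tested. The widest change in this list was the fall of Dlk1, given above among the inhibitors. Ly6a, the stem cell antigen Sca-1, rose from 44.2 and 46.5 CPM to 508, 359 and 420 CPM (3.24 ± 0.21, adjusted p = 6.52e-05), tissue factor, F3, by 2.98 ± 0.16 (adjusted p = 3.58e-05) and Icam1 by 2.78 ± 0.16 (adjusted p = 4.1e-05). Pi16 and Dpp4, markers of a fibroblast and progenitor pool in the outer layers of tissues, were lower in Postn P7 than in Tcf21 P7 by -1.59 ± 0.12 (adjusted p = 0.00119) and -1.21 ± 0.19 (adjusted p = 0.0125). Pi16 stood at 242 and 231 CPM against 680 and 747 CPM, and the call of Dpp4 was lost without either Tcf21 P7 library and with the pair summed. Dlk1 was lower as well, and Icam1 was higher in Postn P7, at 27.3 and 34.5 CPM against 19.3 and 17.0 CPM (0.77 ± 0.16, adjusted p = 0.0244). The call of Icam1 was lost without Postn P7 replicate 2, without either Tcf21 P7 library and with that pair summed.

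For each of the 9 genes the other genes with the most similar profile over the 7 libraries were listed among 9965 genes of at least 10 CPM on average. Since the libraries fall into 3 groups of 2 or 3, many genes reach high values, and the coefficients, Pearson's r of log2 CPM over 7 libraries that share their scaling, are descriptions only. Closest to Lpl were Slc10a6 (0.999), a steroid sulfate transporter, and Sod3 (0.998), extracellular superoxide dismutase. Closest to Scd1 were Gpnmb (0.999), a membrane glycoprotein, and Ntn4 (0.999), a netrin. Apod was followed by Sat1 (0.998), a polyamine acetylase, and Dpep1 (0.996), a dipeptidase, and Cebpd by Tob2 (0.997) and Has2os (0.996). For Apoe they were Atp6v0b (0.998), a subunit of the proton pump of lysosomes, and Sqstm1 (0.998), the autophagy receptor p62. Cebpa was followed by Il6ra (0.993), the interleukin 6 receptor, and Ndufaf8 (0.9915), an assembly factor of respiratory complex I, and Ebf1 by Hdac10 (0.9935) and Katna1 (0.988). Pparg came with Tanc1 (0.995) and Tcim (0.99), which shared its high value in Tcf21 P30 replicate 1: Tcim stood at 188 CPM there and at 22.3 to 56.6 CPM in the other libraries. Plin2 had the loosest match, with Nat9 (0.976) and Rrp1 (0.964). Sod3 stood at 157 and 198 CPM for Postn P7, at 241 and 249 CPM for Tcf21 P7 and at 637, 811 and 733 CPM for Tcf21 P30, the same order of groups as Lpl.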

How the data were processed

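RNA sequencing counts were analysed for 7 libraries of sorted cardiac fibroblasts in 3 groups, assigned by the labels. The authors deposited whole-number raw counts per gene symbol, with no normalization, 15207835 to 18519528 per library, so that the lowest level of Cebpa rested on 71 counts. Reads were aligned with STAR to GRCm38, per the submitters' processing notes. For the counting, program, annotation and strand setting are not given in the sources used here. In testing, the edgeR package (4.0.16, in R 4.3.3) was used: filterByExpr kept 17636 genes, TMM factors scaled the libraries, and 1 robust quasi-likelihood model with group means covered all 7 of them. Benjamini-Hochberg adjustment ran over the 17636 genes, and 0.05 was the threshold. Standard errors were derived from the F-test, by dividing the size of the log2 fold change by the root of F. The procedure was tested on simulated data whose spread was estimated from these same libraries, so that estimate itself was not tested.

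The 9 genes, the gene lists and the left-out libraries were chosen with earlier results of these data known. The text names the 9 genes, up to 4 other called genes with the largest change per list and comparison, and the 2 genes most correlated with each of the 9 (log2 CPM, prior count 2). Spidr, Gm45091 and Scd2 were added as overlapping or paralogous genes, and markers and lineage genes are named as checks. Coordinates, exon lengths and overlaps came from GENCODE vM21 on GRCm38, which held 54183 of the 54735 symbols. Promoters came from RefSeq. Alternatives were other scalings (DESeq2's size factors, upper quartile, library size alone), no filter, DESeq2 1.42.0, limma-voom (limma 3.58.1), a replicate block, each library left out in turn, both endothelial-rich libraries left out, the Tcf21 P7 pair summed, and the longest transcript as length. Counts per single list under these settings were added after seeing the data.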

Additional observations from a re-analysis of the deposited data

How the results depend on the processing

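The comparison of the lines at 7 days was the least stable. Against 2118 genes, 4 of the 9 genes and 17 list genes called, there were 3442 genes with no filter, 3685 genes and 31 list genes without both endothelial-rich libraries, 2 of the 9 and 11 list genes with upper-quartile scaling, and 109 genes, 0 of the 9 and 2 list genes with the Tcf21 P7 pair summed. Leaving out 1 library gave 75 to 3289 genes, 0 to 4 of the 9 and 2 to 26 list genes, lowest without a Tcf21 P7 library and highest without Tcf21 P30 replicate 1. With age (5604 genes, 47 list genes), the summed pair gave 2487 and 28, and leaving out 1 library 2450 to 6050 genes, 27 to 56 list genes and 9 to 14 of the cholesterol synthesis genes. Between Postn P7 and Tcf21 P30 (4276 genes) leaving out 1 library gave 2801 to 5050. With library size alone the split at 7 days was 1741 higher and 472 lower (1149 and 969 with TMM), with the median of all genes at 0.116, and between Postn P7 and Tcf21 P30 it was 2802 and 1725 (2070 and 2206). Upper-quartile scaling gave 1187 and 647 at 7 days. With no filter, Cebpd and Pparg were also called at 7 days. Signs changed in differences that were not called: with 1 library left out, Apod at 7 days ran from -0.99 to 0.25 (0.26 without both endothelial-rich libraries), Cebpd at 7 days from -0.052 to 0.95, Plin2 with age from -0.087 to 0.032, and, between Postn P7 and Tcf21 P30, Ebf1 from -0.16 to 0.032 (0.044 with library size alone) and Pparg from -1.85 to 0.11. Of the causes, only the smaller number of libraries follows from the construction, and the others were not tested.

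Replicate numbers were not taken as pairs, since the labels do not say what a number marks. Deviations of equally numbered libraries correlated across genes at 0.0822 between Postn P7 and Tcf21 P7, 0.0498 and 0.0399 between the ages of the Tcf21 line, and 0.293 and 0.312 between Postn P7 and Tcf21 P30. With a replicate block 1556, 4553 and 3348 genes were called (lines at 7 days, ages, Postn P7 against Tcf21 P30), 4, 5 and 6 of the 9, and 12, 48 and 47 list genes. The difference of Plin2 with age was 0.0078 with the block.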
